A study of Mus musculus with 3 samples.

Results

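The 8 genes described here make up the type 1 (IFN-γ) program of T cells and the receptors that drive it: Tbx21 (T-bet), Eomes, Ifng, Stat4, Il12rb1, Il12rb2, Il18r1 and Il18rap. They were taken by symbol, without a filter on their values but with earlier results of these data known. They are 8 of the 30406 gene identifiers that the 3 libraries share. Each library was 1 droplet single-cell RNA-seq run of sorted thymic iNKT cells from pooled mice, without a replicate. The C57BL/6 library came from 7-week-old mice that had received no bone marrow transplantation (BMT). The BM only (non-GvHD) and BM + Spl (GvHD) libraries came from 16-week-old F1 (C57BL/6 x BALB/c) mice, 9 weeks after lethal irradiation and transfer of T cell-depleted C57BL/6 marrow, and the BM + Spl mice also received splenic cells from C57BL/6 mice. In all groups CD8+ cells were depleted and TCRβ+CD1d-tet+CD24-NK1.1- cells were sorted, so cells with surface NK1.1, which many NKT1 cells acquire, lay outside the sort. Transcripts were counted by unique molecular identifier (UMI), so that 1 UMI stands for 1 captured RNA molecule. A level is given as CPM, the UMIs of a gene summed over a set of cells and scaled to counts per 1e6 UMIs of those cells on the shared identifiers. Ranges in parentheses are 95% intervals that cover counting error only. With 1 library per group no statement below extends to the spread between mice, and no test across samples exists.

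iNKT cells mature in the thymus into subsets that resemble helper T cell lineages. NKT1 cells depend on the T-box factor T-bet and produce IFN-γ, NKT2 cells keep high PLZF and produce IL-4, and NKT17 cells depend on RORγt. The IL-12 receptor joins Il12rb1, a chain that the IL-23 receptor also uses, to Il12rb2, the chain that recruits STAT4. The IL-18 receptor joins the binding chain Il18r1 to the accessory chain Il18rap and signals through MyD88. T-bet and STAT4 both act on Ifng, and IL-12 together with IL-18 can elicit IFN-γ from NKT1 and NK cells without a T cell receptor signal.

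In GENCODE vM21 (GRCm38), Tbx21 lies on chromosome 11 from 97098071 to 97115331, Eomes on chromosome 9 from 118478212 to 118486132, Ifng on chromosome 10 from 118441046 to 118445892, and Stat4 on chromosome 1 from 51987148 to 52107189. Il12rb1 lies on chromosome 8 from 70808449 to 70821424 and Il12rb2 on chromosome 6 from 67291318 to 67376188. The IL-18 receptor chains are neighbours on chromosome 1, both on the plus strand, with Il18r1 from 40465552 to 40500854, Il18rap from 40515362 to 40551705 and 14507 bases between them. Counts were made per whole gene and do not tell exons from introns. The sequences before Ifng and Il12rb2 are shown because these genes carried wide differences between subsets and between the BMT groups, and because both hold the motif TTCNNNGAA that STAT proteins can bind. Each is the 250 bases before the gene's start in RefSeq (GRCm38.p6), 5′ to 3′ along the gene's strand, with the motif in capitals: Ifng at chr10:118440796-118441045 (plus strand) and Il12rb2 at chr6:67376189-67376438 (minus strand).
Ifng: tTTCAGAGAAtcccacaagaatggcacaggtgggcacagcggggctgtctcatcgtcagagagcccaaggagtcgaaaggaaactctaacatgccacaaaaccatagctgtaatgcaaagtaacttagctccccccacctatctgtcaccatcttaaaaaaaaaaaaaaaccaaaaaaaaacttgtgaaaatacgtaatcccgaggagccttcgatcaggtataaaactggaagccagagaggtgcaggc
Il12rb2: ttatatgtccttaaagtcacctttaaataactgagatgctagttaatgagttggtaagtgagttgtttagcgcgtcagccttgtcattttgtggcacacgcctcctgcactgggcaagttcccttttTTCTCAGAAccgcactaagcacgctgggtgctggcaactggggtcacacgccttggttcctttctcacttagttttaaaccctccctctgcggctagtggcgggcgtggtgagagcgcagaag
The motif began 249 bases before the start of Ifng and 123 bases before that of Il12rb2. Of the 8 genes, 7 had at least 1 RefSeq window, 10 windows in all, and 3 of the 7 genes (Ifng, Il12rb2 and Il18r1) held the motif, which reads the same on both strands and occurs in 7.02% of the 32851 windows of all genes. The count is per gene and the share per window, so they are not like measures. Il18r1 held the motif in 1 of its 3 windows, chr1:40465756-40466055, which begins past the gene start given above. The T-box core GGTGTGA, or TCACACC on the other strand, was found in 0 of the 7 genes, so no overlap with the STAT motif arose, and in 3.33% of all windows. These matches describe letters and not binding.

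Cells with more than 200 and fewer than 6000 detected genes and with less than 10% of their UMIs from mitochondrial genes were kept, which left 4434, 5970 and 5557 cells of C57BL/6, BM only and BM + Spl with median depths of 12073, 4721 and 6463 UMIs. Subsets were gated on other genes. A cell with at least 5 UMIs of NKT1 markers (Nkg7, Klrd1, Il2rb, Cxcr3) and NKT2 markers (Zbtb16, Il17rb, Pdcd1, Id3) was NKT1-gated when the NKT1 share of these was 0.75 or more, NKT2-gated at 0.25 or less, and intermediate between. Cells with B, myeloid, Foxp3, Cd8 or NKT17 markers were set aside before. The NKT1 gate held 1107, 2492 and 649 cells of C57BL/6, BM only and BM + Spl, with median depths of 6493, 4448 and 4999 UMIs, the intermediate gate 811, 238 and 483, and the NKT2 gate 1988, 789 and 1406. Of the NKT1-gated cells, 77, 39 and 61 lay within 0.05 of the cut, or 6.96%, 1.57% and 9.40%. An NKT1 share of 0.9 or more was found in 775, 2144 and 407 of them. The NKT1-gated cells of BM only and BM + Spl thus differ in where they lie along this share. T-bet is known to act on Il2rb and Cxcr3, so these markers are not fully independent of Tbx21. The C57BL/6 table was made with Cell Ranger 3.0.2 and the others with 7.0.0, and its cells held a median of 6.52% mitochondrial UMIs against 0.688% and 0.512%. A Trbv UMI was found in 19.8% of its cells against 89.5% and 89.2%, and which end of the transcripts was sequenced in which library is not given in the sources used here. Age, transplant, host, kit, counting and depth cannot be told apart there, so C57BL/6 levels stand beside those of the BMT mice without comparison. The BM only and BM + Spl libraries shared 43 cell barcodes.

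The sorted identity did not hold equally in all gates. V beta segments used by iNKT cells made up 92.7% (91.5 to 93.8) of the 2102 NKT1-gated cells with an assigned segment in BM only and 41.9% (37.7 to 46.2) of 537 in BM + Spl. The same segments made up 95.8% and 94.6% in NKT2-gated cells, and 29.8% and 29.3% in Foxp3+ cells, which are not iNKT cells by their marker. The NKT1 gate of BM + Spl therefore held many cells whose segment goes against the iNKT label, and its comparison with BM only is given for both kinds of cell below. Since Foxp3+ cells carry these segments as well, a segment on the list does not make a cell an iNKT cell. Ncr1, a marker of NK cells and innate-like lymphocytes, had a UMI in 91 of 2492 NKT1-gated cells in BM only and in 31 of 649 in BM + Spl. No UMI of the T cell gene Cd3e was found in 24 of the 91 and in 29 of the 31, and an iNKT segment was assigned in 57 of the 91 and in 1 of the 31. In C57BL/6 the count was 0 of 1107, and a limit of 3 counts allows up to 0.271% of cells with a captured Ncr1 UMI.

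**Figure D1:**
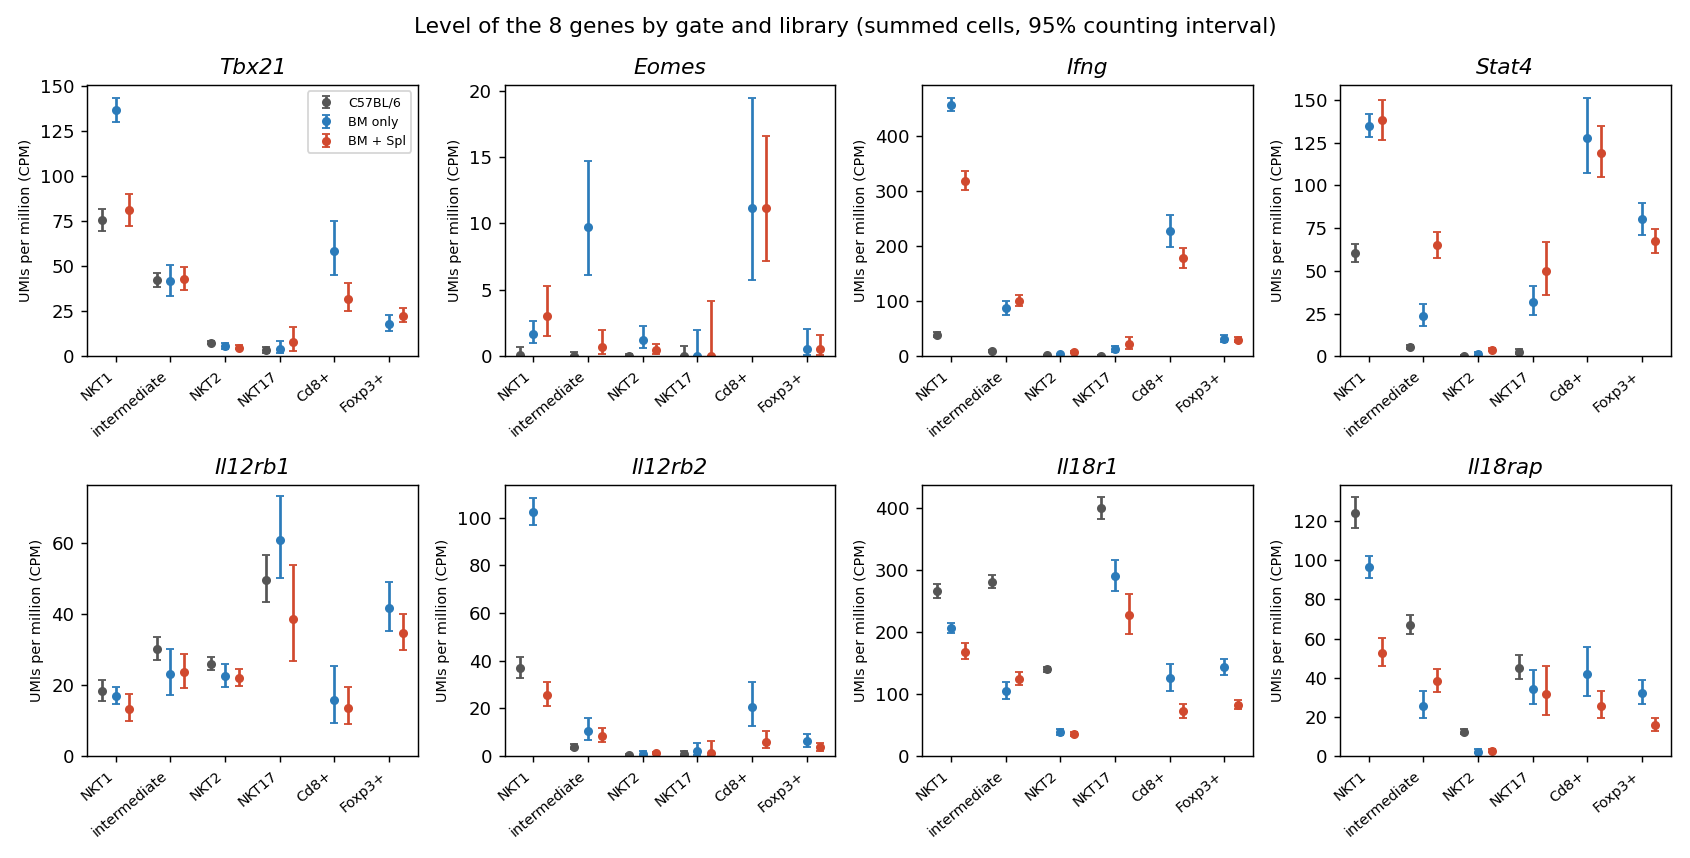
Level of each of the 8 genes (y axis, CPM, linear from 0) in 6 gates (x axis), 1 point per library for gates with at least 50 cells; bars are 95% counting intervals. Tbx21, Ifng, Il12rb2 and Il18rap are highest in the NKT1 gate of each library, and Il12rb1 and Il18r1 are highest in the NKT17 gate. In the NKT1 gate the BM + Spl points of Tbx21, Ifng, Il12rb2, Il18r1 and Il18rap lie below those of BM only with intervals apart. Il12rb1 lies below there by value, with overlapping intervals.

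Tbx21, which encodes the master factor of NKT1 cells, stood at 75.3 CPM (69.4 to 81.6) in NKT1-gated cells of C57BL/6, 136 CPM (130 to 143) in BM only and 80.9 CPM (72.3 to 90.2) in BM + Spl. Intermediate cells held 42.2, 41.5 and 42.7 CPM, and NKT2-gated cells 7.50, 5.57 and 4.86 CPM. The order NKT1, intermediate, NKT2 held in each library with intervals apart. Eomes, the related T-box factor of NK and memory CD8 T cells, was scarce, with a UMI in 2 of 4434, 33 of 5970 and 34 of 5557 kept cells. NKT1-gated cells held 1, 20 and 12 Eomes UMIs. After BMT its level was highest in Cd8+ cells, at 11.1 CPM in both libraries (5.75 to 19.5 in BM only and 7.14 to 16.6 in BM + Spl), and intermediate cells of BM only held 9.71 CPM (6.09 to 14.7) from 6 cells. In BM + Spl 21 of its 34 cells carried a V beta segment outside the iNKT list and in BM only 8 of 33. Such segments were also more common among all kept cells of BM + Spl than of BM only, so this contrast is not shown to be particular to Eomes.

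Ifng followed the same order of gates. NKT1-gated cells held 39.1 CPM (34.9 to 43.7) in C57BL/6, 456 CPM (444 to 469) in BM only and 318 CPM (301 to 337) in BM + Spl, where 1 cell held 30.5% of these UMIs. Intermediate cells held 9.00, 87.0 and 100.5 CPM and NKT2-gated cells 2.03, 3.46 and 7.64 CPM. With each cell thinned to 2700 UMIs, an Ifng UMI was present in 8.59% (7.00 to 10.4) of NKT1-gated cells of C57BL/6, 50.04% (47.9 to 52.1) in BM only and 32.0% (28.3 to 35.9) in BM + Spl, and without thinning in 16.4%, 60.2% and 44.4%. B-marker cells, which should lack it, carried an Ifng UMI in 1.47% of 136 thinned cells in BM only and 3.76% of 133 in BM + Spl, at median depths of 6947 and 8332 UMIs before thinning. The early response genes Fos and Jun were lower in BM + Spl than in BM only along with Ifng: NKT1-gated cells held 40.8, 1374 and 722 CPM of Fos and 89.6, 737 and 470 CPM of Jun in C57BL/6, BM only and BM + Spl. Their part in the Ifng levels was not tested.

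Stat4, the transducer of the IL-12 signal, stood at 60.3 CPM (55.0 to 65.9) in NKT1-gated cells of C57BL/6, 135 CPM (128 to 142) in BM only and 138 CPM (127 to 150) in BM + Spl. NKT2-gated cells held 0.425, 1.24 and 3.73 CPM, next to none. Intermediate cells held 5.35 CPM (4.08 to 6.88), 23.4 CPM (17.5 to 30.6) and 64.9 CPM (57.6 to 73.0), and the intervals of BM only and BM + Spl lie apart. Stat4 was not limited to NKT1-gated cells: Cd8+ cells held 128 and 119 CPM in BM only and BM + Spl, with intervals that overlap those of the NKT1 gate, and Foxp3+ cells held 80.1 and 67.4 CPM.

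The chains of the IL-12 receptor differed in pattern. Il12rb2 stood at 36.9 CPM (32.8 to 41.4) in NKT1-gated cells of C57BL/6, 102 CPM (96.7 to 108) in BM only and 25.7 CPM (21.0 to 31.2) in BM + Spl. Intermediate cells held 3.83, 10.6 and 8.49 CPM and NKT2-gated cells 0.546, 0.990 and 1.20 CPM. Il12rb1 was lower by value in NKT1-gated cells, at 18.3 CPM (15.4 to 21.5), 16.8 CPM (14.6 to 19.3) and 13.4 CPM (10.0 to 17.5), than in NKT2-gated cells, at 26.0, 22.5 and 22.0 CPM. It was highest in NKT17-gated cells, which also use it for IL-23, at 49.7 CPM (43.4 to 56.5), 60.9 CPM (50.1 to 73.2) and 38.4 CPM (26.6 to 53.7). In BM + Spl the last interval overlaps that of Foxp3+ cells at 34.6 CPM (29.9 to 39.9). The thinned share of NKT1-gated cells of BM + Spl with an Il12rb1 UMI, 3.14%, was close to the 3.01% of B-marker cells.

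The chains of the IL-18 receptor were spread more widely. Il18r1 stood at 266 CPM (254 to 277) in NKT1-gated cells of C57BL/6, 206 CPM (198 to 215) in BM only and 169 CPM (156 to 182) in BM + Spl. NKT17-gated cells held more in each library, 400 CPM (399.8, with an interval from 382 to 418), 291 CPM (267 to 316) and 227 CPM (197 to 261). NKT2-gated cells held 140 CPM (139.7) in C57BL/6 and 38.6 and 35.4 CPM after BMT, where 10.98% and 9.33% of thinned cells had an Il18r1 UMI against 11.03% and 8.27% of B-marker cells. Il18rap was highest in NKT1-gated cells, at 124 CPM (116 to 132), 96.3 CPM (90.8 to 102) and 52.7 CPM (45.8 to 60.3), and lay at 45.1, 34.5 and 31.7 CPM in NKT17-gated and 12.4, 2.23 and 2.78 CPM in NKT2-gated cells. NKT17-gated cells thus had the most of the binding chain and less of the accessory chain than NKT1-gated cells. In thinned NKT1-gated cells both chains were found together in 164, 214 and 47 cells, where the product of the separate shares gives 136, 191 and 27.5.

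Between the NKT1 and NKT2 gates of the same library, Tbx21, Ifng, Stat4, Il12rb2, Il18r1 and Il18rap were past 1.5-fold higher in the NKT1 gate each time. These were 6 of the 7 members with at least 20 UMIs in C57BL/6, where 16.8% of all 11753 genes compared were that much higher, 6 of 8 in BM only, where 19.9% of 11514 genes were, and 6 of 7 in BM + Spl, where 19.8% of 11438 genes were. The members' median log2 ratio was 3.33, 5.03 and 4.24, beside -0.01, -0.04 and 0.01 over all genes compared. By value Stat4 had the widest log2 ratio of the members in C57BL/6, 7.15 (6.39 to 8.03), and Ifng in BM only, 7.04 (6.51 to 7.63). These rest on 14 Stat4 and 28 Ifng UMIs in the NKT2 gate. Their intervals overlap those of Il12rb2, at 6.08 (5.39 to 6.85) in C57BL/6 and 6.69 (5.71 to 7.91) in BM only. That of Ifng also overlaps Stat4 in BM only, at 6.77 (5.89 to 7.83), so the order is not settled. In BM + Spl Ifng was at 5.38 (5.11 to 5.66), with 30.5% of the UMIs of the NKT1 gate in 1 cell, and Stat4 at 5.21 (4.82 to 5.62). Il18rap had log2 ratios of 3.32, 5.43 and 4.24, each above those of Il18r1 at 0.93, 2.42 and 2.25 with intervals apart. Il12rb1 went the other way, at -0.51 (-0.77 to -0.25), -0.42 (-0.72 to -0.12) and -0.72 (-1.17 to -0.30), and was within 1.5-fold in C57BL/6 and BM only. After BMT the thinned shares of NKT2-gated cells with a UMI of Tbx21, Ifng, Stat4, Il12rb2 or Il18rap were below those of B-marker cells, and so are not shown to be above background. For Tbx21 these shares were 1.46% and 1.37% against 4.41% and 3.01%. The B-marker cells were not free of T cell RNA, since 43 of 140 in BM only and 49 of 137 in BM + Spl had an assigned V beta segment. A share below theirs therefore does not show that a gene is absent.

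**Figure D2:**
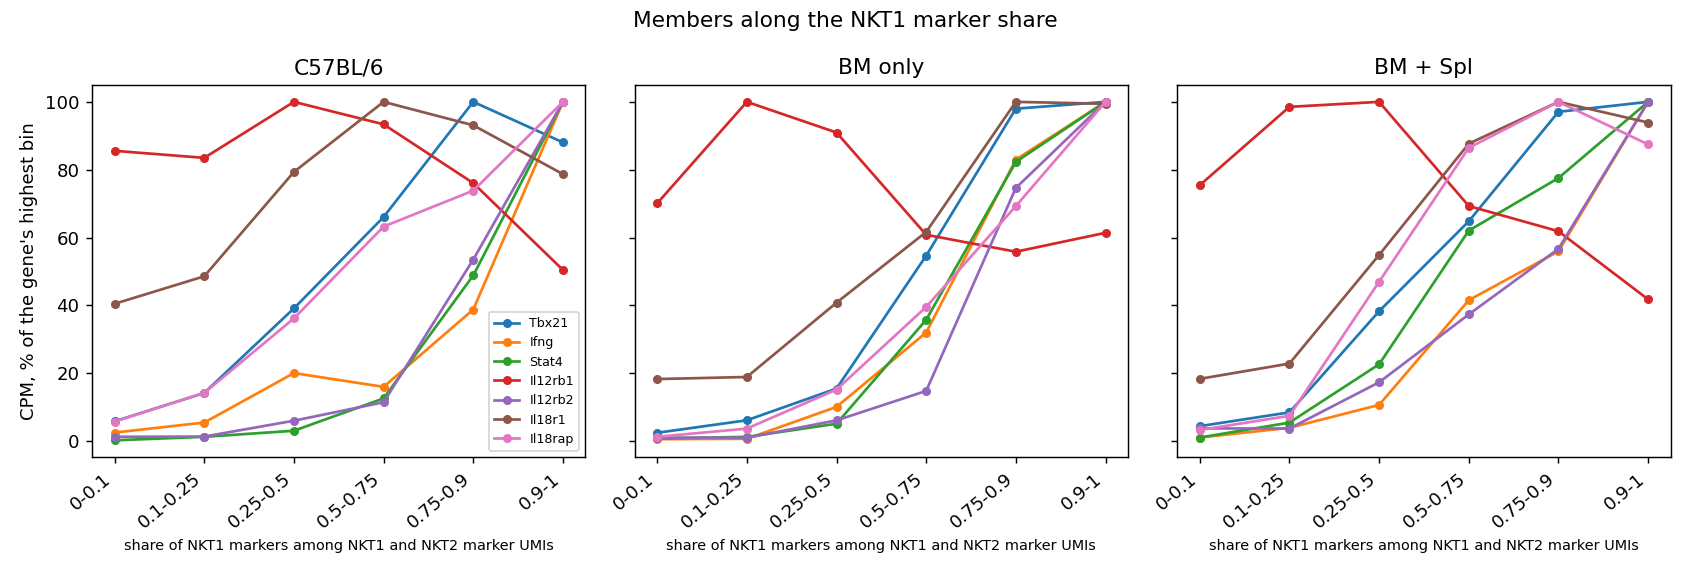
CPM of 7 members as a percentage of the gene's own highest bin (y axis) in 6 bins of a cell's NKT1 marker share (x axis), 1 panel per library, without error bars. In C57BL/6 Tbx21 and Il18rap reach 66.0% and 63.2% in the bin from 0.5 to 0.75, where Stat4 and Il12rb2 are at 12.5% and 11.4%; Il12rb1 is lower in the 0.9 to 1 bin than in the 0.25 to 0.5 bin of each panel, and the last Ifng point of BM + Spl includes 1 cell with 386 Ifng UMIs.

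In C57BL/6 the members did not reach their levels at the same NKT1 marker share. Tbx21 went from 4.73 CPM (3.82 to 5.78) in the lowest bin, 0 to 0.1, to 31.9 CPM (27.9 to 36.3) at 0.25 to 0.5 and 53.9 CPM (47.5 to 60.9) at 0.5 to 0.75. Il18r1 was at its highest at 0.5 to 0.75, with 317 CPM (301 to 333.4). Stat4 stood at only 9.26 CPM (6.73 to 12.4) there, and then at 36.0 CPM (29.4 to 43.7) at 0.75 to 0.9 and 73.8 CPM (66.5 to 81.6) at 0.9 to 1. Il12rb2 went through the same steps, at 5.05, 23.7 and 44.2 CPM. At 0.5 to 0.75 Tbx21, Il18rap and Il18r1 thus stood at 66.0%, 63.2% and 100% of their highest bin, and Stat4 and Il12rb2 at 12.5% and 11.4%. In that bin of BM only Stat4 was at 35.7% beside Il18rap at 39.5% and Tbx21 at 54.6%, from 107 cells with 41 Stat4 UMIs. In that bin of BM + Spl it was at 62.0% beside Tbx21 at 64.8% and Il18rap at 86.4%. Il12rb2 was at 14.8% and 37.3% in that bin of BM only and BM + Spl. These values stand beside those of C57BL/6 without comparison, for the reasons given above. The bins order cells by marker share, not by time.

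After BMT the steps of Stat4 differed between the groups. At 0.25 to 0.5 Stat4 stood at 7.05 CPM (3.64 to 12.3) in BM only and 34.4 CPM (27.6 to 42.4) in BM + Spl, and at 0.5 to 0.75 at 49.5 CPM (35.5 to 67.1) and 94.4 CPM (81.6 to 109), with intervals apart in both bins. In the highest bin it stood at 138 CPM (131 to 146) and 152 CPM (137 to 169), which overlap. B-marker cells held 41.7 CPM (31.0 to 55.0) of Stat4 in BM only and 45.0 CPM (34.4 to 58.0) in BM + Spl. The Stat4 levels at 0.25 to 0.5 are therefore not shown to be above background. Il12rb2 had the reverse pattern, with 15.7 CPM (8.35 to 26.8) and 11.7 CPM (7.48 to 17.4) at 0.5 to 0.75, which overlap, and 106 CPM (99.99 to 113) and 31.3 CPM (24.5 to 39.3) in the highest bin, which do not. The Il12rb2 values at 0.5 to 0.75 rest on only 13 and 24 UMIs. These bins mix cells with iNKT and with other V beta segments in different proportions in the 2 libraries. In NKT1-gated cells with an iNKT segment Stat4 was lower by value in BM + Spl, at 111 against 134 CPM, and in those with another it was higher by value, at 149 against 119 CPM.

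**Figure D3:**
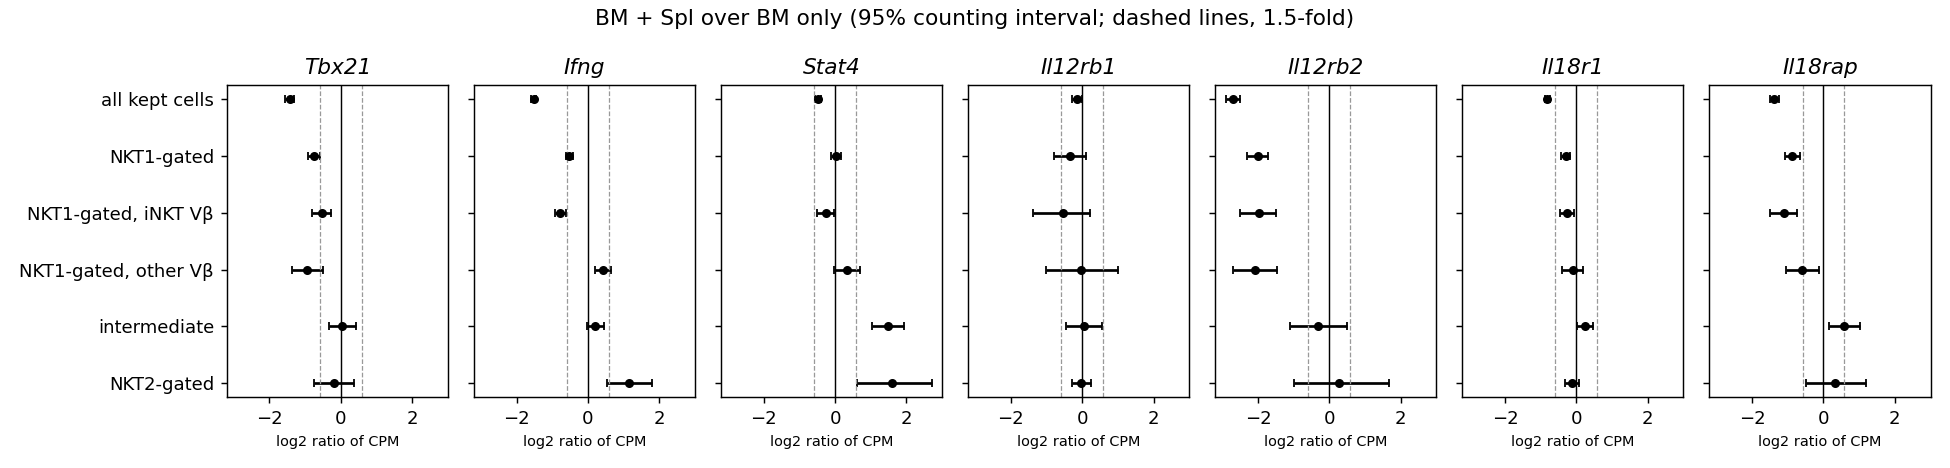
Log2 ratio of CPM in BM + Spl over BM only (x axis) for 7 members in 6 sets of cells (rows); bars are 95% counting intervals, the solid line marks no difference and dashed lines mark 1.5-fold. Il12rb2 lies near -2 in the 3 rows of NKT1-gated cells, Stat4 lies near 0 in all NKT1-gated cells and above 1 in intermediate cells, and Ifng is at -0.77 in NKT1-gated cells with an iNKT V beta segment and at 0.43 in those with another, a value that 1 cell sets.

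The comparison of BM + Spl with BM only asks how the type 1 program of thymic iNKT cells differs with GvHD. Over all kept cells 5 of 8 members were past 1.5-fold lower in BM + Spl and 0 were past it higher, against 10.8% lower and 8.17% higher of 14295 genes. Il12rb2 differed most, at 6.17 CPM (5.45 to 6.96) against 40.03 CPM (38.0 to 42.2), a log2 ratio of -2.70 (-2.89 to -2.51). Ifng was at -1.52 (-1.73 without the highest NKT1-gated cell of each library), Tbx21 at -1.44, Il18rap at -1.38 and Il18r1 at -0.81, and Stat4 at -0.49, Eomes at -0.57 and Il12rb1 at -0.15 were within 1.5-fold. Stat4 and Eomes were past 1.5-fold lower when B-marker, myeloid, Foxp3+ and Cd8+ cells were left out. The same held with iNKT V beta cells only, and their lowest log2 ratios were -1.41 and -1.46. NKT1-gated cells made up 41.7% of kept cells in BM only and 11.7% in BM + Spl, and held 86.5% and 38.3% of the Il12rb2 UMIs and 85.1% and 46.4% of the Ifng UMIs. Cells with myeloid markers held 1.51% and 14.7% of the Il12rb2 UMIs, at 15.2 and 11.9 CPM. The sums over all kept cells are thus not from T cell gates alone. In such sums fewer cells of a subset and less RNA per cell cannot be told apart.

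Within the NKT1 gate 3 of 8 members were past 1.5-fold lower in BM + Spl and 1 was past it higher, against 12.2% lower and 15.6% higher of 11159 genes. Il12rb2 was 3.98-fold lower, at 25.7 against 102 CPM, a log2 ratio of -1.99 (-2.30 to -1.70). Il18rap was at -0.87 (-1.09 to -0.66) and Tbx21 at -0.75 (-0.93 to -0.58). The member on the other side was Eomes at 0.83 (-0.33 to 1.93), which rests on 12 and 20 UMIs. Stat4 was at 0.03 (-0.11 to 0.17), Il18r1 at -0.29 (-0.42 to -0.17) and Il12rb1 at -0.33 (-0.80 to 0.11). The thinned share of NKT1-gated cells with an Il12rb2 UMI was 22.0% (20.3 to 23.8) in BM only and 7.43% (5.47 to 9.81) in BM + Spl, and 34.6% and 13.3% without thinning, beside 0.735% and 3.76% of thinned B-marker cells. For Tbx21 the thinned shares were 30.1% (28.2 to 32.0) and 18.5% (15.5 to 21.8), and 42.9% and 31.7% without thinning.

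The lower Il12rb2 and Il18rap were also found in NKT1-gated cells with an iNKT V beta segment, 1948 in BM only and 225 in BM + Spl. The 225 may include cells that are not iNKT cells, since 29.3% of Foxp3+ cells of BM + Spl with an assigned segment carried one of these and 312 NKT1-gated cells carried another. If NKT1-gated cells that are not iNKT cells used these segments at that rate, they would make up a large part of the 225. They would be a small part of the 1948, since 154 cells of BM only carried another segment. The ratios in this set are therefore not shown to be those of iNKT cells alone. Of 7 members with enough UMIs there, 3 were past 1.5-fold lower and 0 higher, against 15.9% lower and 13.9% higher of 10421 genes. Il12rb2 stood at 26.2 CPM in BM + Spl and 103 CPM in BM only, a log2 ratio of -1.98 (-2.50 to -1.50), Il18rap at 45.2 and 96.8 CPM, a ratio of -1.10 (-1.50 to -0.73), and Ifng at 274 and 468 CPM, a ratio of -0.77 (-0.93 to -0.62). Tbx21 stood at 97.6 and 141 CPM, a ratio of -0.53 (-0.80 to -0.28) that is within 1.5-fold. Stat4 was at -0.26 (-0.52 to -0.02), Il18r1 at -0.27 (-0.47 to -0.07) and Il12rb1 at -0.53 (-1.37 to 0.22), all within 1.5-fold. In the 154 and 312 cells with another segment Il12rb2 was at -2.07 (-2.69 to -1.47), Tbx21 at -0.94 (-1.37 to -0.51) and Il18rap at -0.59 (-1.05 to -0.11). There Stat4 was at 0.33 (-0.03 to 0.70), Il18r1 at -0.10 (-0.40 to 0.20) and Il12rb1 at -0.04 (-1.02 to 1.01), so Stat4 lay on opposite sides of 0 in the 2 kinds of cell, with an interval clear of 0 in those with an iNKT segment. Without the cells with an Ncr1 UMI, Il12rb2 was at -2.12 (-2.45 to -1.81), Il18rap at -0.90 (-1.13 to -0.68) and Tbx21 at -0.88 (-1.07 to -0.69).

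The Ifng ratio in the NKT1 gate turned on 1 cell. Of 1264 Ifng UMIs in the 649 NKT1-gated cells of BM + Spl, 386 or 30.5% lay in 1 cell, and the next cells held 19. That cell had 19107 UMIs in all, 12 NKT1 and 0 NKT2 marker UMIs, 6 Cd3e UMIs, 0 Ncr1 UMIs and a V beta segment outside the iNKT list. The highest cell of BM only held 41 of 5370 Ifng UMIs. With all cells the log2 ratio was -0.52 (-0.61 to -0.43), within 1.5-fold, and without the highest cell of each library it was -1.03 (-1.13 to -0.92), 222 against 453 CPM. In cells with another V beta segment the ratio was 0.43 (0.21 to 0.65) with that cell and -0.64 (-0.89 to -0.39) without it. In BM + Spl the cells with another segment held 419 CPM of Ifng with it and 199.6 CPM without it, beside 274 CPM in cells with an iNKT segment.

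**Figure D4:**
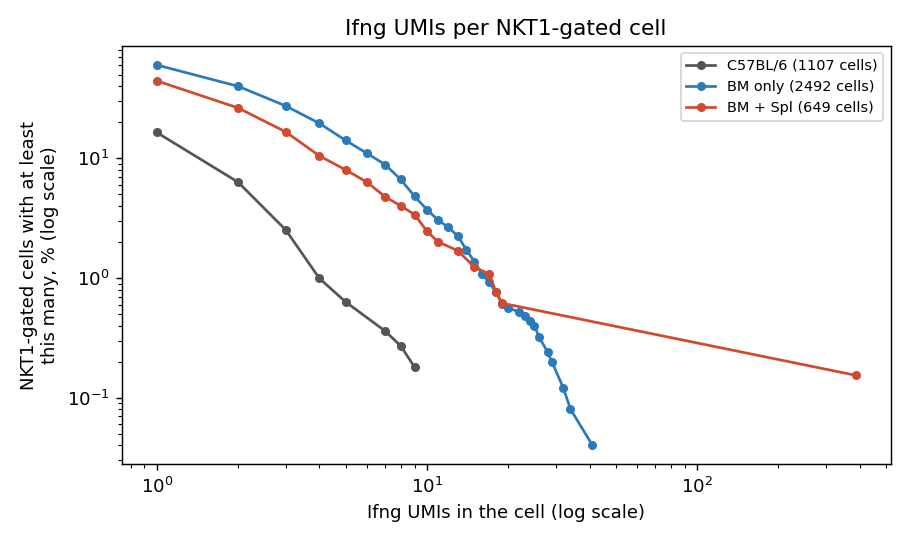
Percentage of NKT1-gated cells (y axis, log scale) with at least a given number of Ifng UMIs (x axis, log scale) in the 3 libraries. C57BL/6 ends at 9 UMIs and BM only at 41, 44.4% of BM + Spl and 60.2% of BM only cells have at least 1, and 1 BM + Spl cell stands apart at 386.

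In the intermediate gate 1 of 8 members was past 1.5-fold higher in BM + Spl and 1 lower, against 8.9% higher and 7.43% lower of 10067 genes. Stat4 was the higher, at 64.9 against 23.4 CPM, a log2 ratio of 1.47 (1.05 to 1.92). With wider cuts for this gate, 0.9 and 0.1, Stat4 was at 0.41, within 1.5-fold, and 0 members were past it higher and 4 lower, Tbx21 among them at -0.62 and Il12rb2 at -1.80. The share of all genes past 1.5-fold was not computed with cuts of 0.9 and 0.1, so these counts have no background beside them. With the cuts of 0.75 and 0.25 Stat4 was at 1.01 (0.43 to 1.64) in intermediate cells with an iNKT segment, 298 in BM + Spl and 177 in BM only, and at 1.56 (0.68 to 2.59) in the 120 and 22 cells with another. Its levels in BM + Spl and BM only were 37.2 and 18.4 CPM with an iNKT segment and 181 and 61.5 CPM with another. The 298 may include cells that are not iNKT cells, so the split does not show the difference in iNKT cells alone. A Stat4 UMI was found in 18.9% (15.4 to 22.7) of thinned intermediate cells in BM + Spl and 6.19% (3.43 to 10.2) in BM only, and in 13.5% (8.22 to 20.5) and 5.15% (2.09 to 10.3) of B-marker cells, so the shares are above those of B-marker cells by value with overlapping intervals. By CPM, B-marker cells of BM only held more Stat4, 41.7 CPM (31.0 to 55.0), than the 23.4 CPM of intermediate cells. Those of BM + Spl held 45.0 CPM (34.4 to 58.0), less by value than the 64.9 CPM of intermediate cells. The BM only level under this ratio is therefore not shown to be above background. Eomes was the lower, with 3 UMIs against 22, the latter in 6 cells. With these cuts Tbx21 did not differ beyond counting error, at 0.04 (-0.32 to 0.41), nor did Il12rb2, at -0.32 (-1.10 to 0.49). The thinned share of intermediate cells with an Il12rb2 UMI was 2.65% in BM only, against 0.735% of B-marker cells. In BM + Spl it was 2.54% against 3.76%, and so is not shown to be above background. Il18rap was at 0.58 (0.14 to 1.04), a 1.497-fold difference just inside the threshold. Of 7 members compared in the NKT2 gate 2 were past 1.5-fold higher and 0 lower, against 3.08% higher and 5.03% lower of 11506 genes. These were Ifng at 1.14 (0.54 to 1.79) and Stat4 at 1.59 (0.61 to 2.72). Their thinned shares there lay below those of B-marker cells and so are not shown to be above background. Of the 121 Ifng UMIs in NKT2-gated cells of BM + Spl, 29 or 24.0% lay in 1 cell, and BM only held 28 UMIs.

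Cd8+ and Foxp3+ cells were compared between the BMT groups in the same way. In Cd8+ cells 4 of 8 members were past 1.5-fold lower in BM + Spl and 0 higher, against 10.8% lower and 7.21% higher of 9144 genes. In Foxp3+ cells 3 of 7 were lower and 0 higher, against 9.11% lower and 5.07% higher of 10575 genes. In Cd8+ cells (222 and 383 in BM only and BM + Spl) Il12rb2 stood at 20.4 and 6.04 CPM, a log2 ratio of -1.76 (-2.87 to -0.71), and Tbx21 at 58.5 and 32.0 CPM, a ratio of -0.87 (-1.38 to -0.35). All 22 Il12rb2 UMIs of the BM only Cd8+ cells lay in cells with an iNKT segment (16 UMIs) or without an assigned one (6), and the 91 cells with another segment held 0 UMIs, which allows up to 9.16 CPM. In BM + Spl the 180 Cd8+ cells with another segment held 9 UMIs, or 9.63 CPM, and the 116 with an iNKT segment 0. The lower Il12rb2 was therefore not seen in Cd8+ cells with another segment. The thinned shares of Cd8+ cells with an Il12rb2 UMI were 5.56% in BM only and 1.82% (0.67 to 3.93) in BM + Spl. The latter lay below the 3.76% (1.23 to 8.56) of B-marker cells in BM + Spl by value, with overlapping intervals, and so is not shown to be above background. Ifng stood at 226 and 178 CPM in Cd8+ cells, within 1.5-fold. Il18r1 stood at 125 and 72.4 CPM there, a ratio of -0.79 (-1.13 to -0.45), and Il18rap was at -0.71 (-1.30 to -0.11). In Foxp3+ cells, 612 and 687, Il18r1 stood at 143 and 82.6 CPM, a ratio of -0.79 (-0.98 to -0.61), and Il18rap at 32.2 and 15.7 CPM, a ratio of -1.04 (-1.46 to -0.62), while Stat4 was at -0.25 (-0.48 to -0.02). Il12rb2 was at -0.76 (-1.71 to 0.18) in Foxp3+ cells, from 22 UMIs in BM only and 20 in BM + Spl. In Foxp3+ cells with a segment outside the iNKT list, 325 and 371, Il18r1 stood at 139.7 and 76.5 CPM and Il18rap at 25.4 and 13.7 CPM.

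For most of the other members no difference beyond counting error was found between thinned cells with and without an Ifng UMI. Thinned NKT1-gated cells with an Ifng UMI, 95 in C57BL/6, 1115 in BM only and 194 in BM + Spl, were set against the 1011, 1113 and 412 without one. Before thinning 182, 1500 and 288 NKT1-gated cells had an Ifng UMI, so the cells without one here include some that had one. Tbx21, Stat4, Il18r1 and Il18rap were higher by value in cells with Ifng in 3 of 3 libraries, and each of these intervals included no difference. Among pathway genes, Irak4, Socs1 and Socs3 were also higher by value in 3 of 3 libraries, and Jak2, Traf6 and Runx3 in 1 of 3. The share over all genes was not computed, so this direction is not shown to be particular to the members. Il12rb2 was at a log2 ratio of 1.21 (0.32 to 2.12) in BM + Spl, 45.8 against 19.8 CPM, and at 0.11 (-0.12 to 0.35) in BM only. Ifngr1, the ligand-binding chain of the IFN-γ receptor, was at 0.49, 0.18 and 0.24 in C57BL/6, BM only and BM + Spl and Fos at 1.43, 0.37 and 0.66, each with an interval above 0. Jun was at 0.20, 0.19 and 0.57 and Bhlhe40, a cofactor for IFN-γ, at 0.89, 0.29 and 0.43, with intervals above 0 in the BMT libraries and not in C57BL/6. The part of the early response genes in these differences was not tested. Ccl4, a chemokine secreted with IFN-γ, was at 1.13 (0.98 to 1.29) in BM only and 2.01 (1.66 to 2.38) in BM + Spl.

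**Figure D5:**
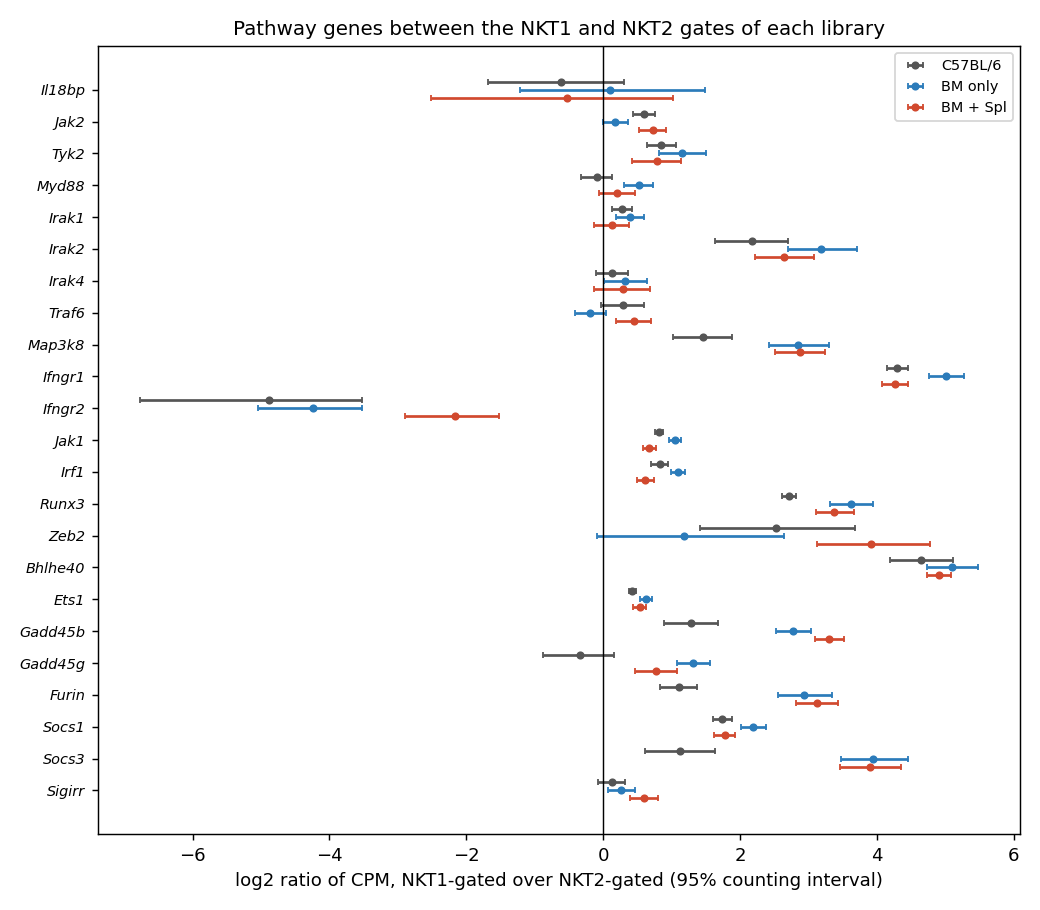
Log2 ratio of CPM in NKT1-gated over NKT2-gated cells (x axis) for pathway genes with at least 20 UMIs (rows), 1 point per library; bars are 95% counting intervals. Bhlhe40, Ifngr1 and Runx3 lie at 2.71 or above in each library, Ifngr2 lies at -2.17 or below, and Irak1, Irak4, Traf6 and Myd88 are within 1.5-fold.

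The wider pathway was followed in 30 genes. Of 24 with enough UMIs, 14, 15 and 16 were past 1.5-fold higher in the NKT1 than in the NKT2 gate of C57BL/6, BM only and BM + Spl, beside 16.8%, 19.9% and 19.8% of all genes compared. There were 2, 1 and 1 past it lower, beside 20.8%, 20.7% and 15.9% of all genes. Among partners and regulators of T-bet, Bhlhe40 was at log2 ratios of 4.64, 5.10 and 4.90 and Runx3, which acts with T-bet on Ifng, at 2.71, 3.62 and 3.38. The chains of the IFN-γ receptor were opposed: Ifngr1 was at 4.30, 5.01 and 4.26, with 262 CPM (262.5), 501 and 326 CPM in NKT1-gated cells, and Ifngr2 at -4.89, -4.24 and -2.17, with 0.504, 1.45 and 5.04 CPM there. Of the brakes, Socs3 was at 1.12, 3.94 and 3.90 and Socs1 at 1.74, 2.19 and 1.77. Of the proximal signalling genes, Irak2 was at 2.17, 3.19 and 2.64 and Map3k8 at 1.46, 2.84 and 2.87, whereas the adaptors and kinases Myd88, Irak1, Irak4 and Traf6 were within 1.5-fold in each library. The ligand genes Il12a and Il18 had at most 5 UMIs in these gates and Il12b had 0.

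With GvHD, 3 of 23 pathway genes were past 1.5-fold higher in NKT1-gated cells and 3 lower, shares near the 15.6% higher and 12.2% lower of all genes compared. Bhlhe40 was at a log2 ratio of 1.16 (1.09 to 1.24), 597 CPM in BM + Spl against 267 CPM in BM only, Zeb2, a repressor that acts downstream of T-bet, at 3.04 (2.34 to 3.80), and Ifngr2 at 1.80 (0.79 to 2.83) from 20 and 17 UMIs. Ifngr1 was at -0.62 (-0.71 to -0.54), Irf1, a target of IFN-γ, at -0.64 (-0.76 to -0.53) and Gadd45g, which IL-12 and IL-18 induce, at -0.79 (-1.08 to -0.52). In intermediate cells 5 of 23 were past it higher and 1 lower, beside 8.9% and 7.43% of all genes. Bhlhe40 was at 1.95 (1.71 to 2.19), 274 against 71.1 CPM, Irak2 at 0.90, Map3k8 at 0.85 and Gadd45b at 0.75, Zeb2 with 32 UMIs against 0 was at least 5.54-fold higher at a floor of 3 UMIs over the group, and Gadd45g was at -0.64. Among intermediate cells with an iNKT segment 2 of 22 were past it higher and 1 lower, beside 6.91% and 7.68% of all genes. Among those with another segment 8 of 19 were higher and 2 lower, beside 22.8% and 15.6% of all genes. In the NKT2 gate Bhlhe40 was the 1 of 24 past it, higher at 1.36 (0.96 to 1.77), beside 3.08% of all genes higher. Among NKT1-gated cells with an iNKT segment 2 of 22 were past it higher and 4 lower, beside 13.9% and 15.9% of all genes. There Bhlhe40 was at 0.94 (0.82 to 1.07), Ifngr1 at -1.01 (-1.17 to -0.85) and Runx3 at -0.86 (-1.15 to -0.58). The values of Zeb2 and Ifngr2 above are for the whole NKT1 gate. As stated above, the set with an iNKT segment may include cells that are not iNKT cells.

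Over the 23 sums of a gate and a library with at least 50 cells, the gene whose log2(CPM + 1) was most like that of Tbx21 among 9831 genes was Ppm1j, with Pearson's r of 0.95, and those of Stat4 and Il18rap were Atxn1 at 0.94 and Ppp1r12a at 0.94. For Ifng it was Nosip at 0.92, for Il12rb1 Trpm4 at 0.93, for Il12rb2 the integrin gene Itga1 at 0.87, and for Il18r1 Cdc42ep3 at 0.93. Il18r1 and Il18rap were at 0.89 with each other, and Tbx21 and Il12rb1 at 0.00. The sums share 3 libraries and differ in depth, so these values describe likeness only.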

How the data were processed

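Thymic cells of 3 groups were measured by droplet single-cell RNA-seq, with 1 library of pooled mice per group. The authors aligned reads to mm10 and deposited raw UMI counts per gene and cell, and per the file headers the C57BL/6 matrix came from Cell Ranger 3.0.2 (31053 identifiers) and the others from 7.0.0 (32285 identifiers). The submitters' processing notes also name Seurat 4.0.2, which was not used here. Cell Ranger of the later series counts intronic reads by default, which could raise genes with long introns, and whether that setting was used is not given in the sources used here. Libraries held 60600408, 35041153 and 43383960 UMIs in 4613, 5986 and 5573 barcodes of C57BL/6, BM only and BM + Spl, and 99.9%, 99.6% and 99.6% of UMIs lay on the shared identifiers.

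Counts were summed over the cells of a gate and given as CPM with exact Poisson intervals. Shares of cells have exact Clopper-Pearson intervals, after thinning cells to 2700 UMIs, which left out 15, 959 and 568 shallower kept cells of C57BL/6, BM only and BM + Spl. Ratios have exact conditional binomial intervals. Genes with at least 20 UMIs over both sets were compared, and 1.5-fold was the size named. Gates were applied in the order B (2 UMIs), myeloid (3), Foxp3 (1), Cd8 (2), NKT17 (3), then the NKT1 and NKT2 markers. A V beta segment was assigned at 80% of a cell's Trbv UMIs. Doublets were not called or removed, so cells of very high UMIs may be doublets. The 8 members were all named, the 30 pathway genes were named when past 1.5-fold, and for each member its nearest genes by Pearson correlation were searched, up to 3. Myd88, Irak1, Irak4, Traf6, Fos, Jun and Ccl4 were named after their values were seen. Some genes of these lists are not reported here, though the counts include them. The members and lists were chosen with earlier results of these data known, and nothing above rests on them as independent evidence. Alternatives were other gate cuts and marker minimums, other NKT1 markers, thinning, cell filters, V beta strata, scalings, UMI minimums and a 2-fold size. Python 3.11.15, numpy 2.4.6, scipy 1.17.1, pandas 2.3.3 and matplotlib 3.10.9 were used, and the interval and thinning code was tested on simulated data.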

Additional observations from a re-analysis of the deposited data

Results flagged for a closer look

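For 3 members the log2 ratio of BM + Spl over BM only lay below 0 in the NKT1 gate and above 0 in another gate of the same libraries, with both counting intervals clear of 0. With 1 library per group the difference was not tested. Ifng was at -0.52 in NKT1-gated cells and 1.14 in NKT2-gated cells, where its thinned share of cells lay below that of B-marker cells. The first value includes 1 BM + Spl cell with 386 Ifng UMIs and was -1.03 without the highest cell of each library. The second rests on 121 Ifng UMIs in BM + Spl, 29 of them in 1 cell, and 28 in BM only. Il18r1 was at -0.29 in NKT1-gated and 0.24 in intermediate cells. Il18rap was at -0.87 in NKT1-gated and 0.58 in intermediate cells. In cells with an iNKT V beta segment the intervals of the values above 0 included 0: Ifng was at 0.55 (-0.17 to 1.32) in the NKT2 gate, and Il18r1 at 0.08 (-0.19 to 0.36) and Il18rap at 0.44 (-0.08 to 0.99) in the intermediate gate.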

How the results depend on the processing

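Each count of members past 1.5-fold was recomputed under the alternatives, giving 105 counts, of which 97 stayed within 1.5 times and 8 moved. Of 8 members compared between BM + Spl and BM only in the intermediate gate, 2 were past 1.5-fold, and the count was 1 with cuts of 0.6 and 0.4, 4 with cuts of 0.9 and 0.1 (0 higher and 4 lower), 1 with iNKT V beta cells only and 1 with at least 100 UMIs. In the NKT2 gate it was 2, and 1 after thinning, with iNKT V beta cells only and with at least 100 UMIs. In the NKT1 gate it was 4, and 1 at 2-fold, which was Il12rb2. Apart from the sets of iNKT V beta cells, the share of all genes past the same size was not computed for these recounts. They therefore do not show whether a count is unusual. Over 18 alternatives in the NKT1 gate, 4 of them chosen after seeing the data, the log2 ratio of Il12rb2 ranged from -2.18 to -1.61 and that of Il18rap from -1.10 to -0.59, both past 1.5-fold each time. Tbx21 ranged from -0.94 to -0.53 and was within 1.5-fold with at least 10 marker UMIs and with iNKT V beta cells only. Ifng ranged from -1.03 to 0.43 and was past 1.5-fold under 8 of the 18. In intermediate cells Stat4 ranged from 0.41 to 2.02 over 14 alternatives and was within 1.5-fold with cuts of 0.9 and 0.1. The cause of these moves was not tested. No paired analysis was possible because each group is 1 library. With 1 library per group leaving out a replicate is not possible either, and Eomes in the NKT1 gate rests on 12 and 20 UMIs.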
